A study of Mus musculus with 2 samples.

Results

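Heat shock proteins and chaperonins fold other proteins, keep them from aggregating and carry them across membranes. HSP70 proteins bind exposed stretches of unfolded chains in a cycle driven by ATP, J-domain proteins (DNAJA, DNAJB and DNAJC) deliver clients to them, and HSP110 proteins help them release ADP. HSP90 proteins act late on signalling clients such as kinases, among them the Bcr-Abl fusion kinase. The ring-shaped chaperonins enclose a client in a chamber, CCT in the cytosol and HSP60 with its lid HSP10 in the mitochondrion. Some of these genes are switched on by heat shock factors, others by the unfolded protein response of the endoplasmic reticulum, and many are expressed in every growing cell.

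The genes described here are the mouse genes whose symbols begin with Hsp, Dnaja, Dnajb or Dnajc, or with Cct and a digit, together with Tcp1, which encodes the first CCT subunit. The RefSeq gene table holds 85 such protein-coding genes among the 20953 protein-coding genes examined. The members were chosen by name alone, so 4 of the 85 are not chaperones: Hspg2 encodes the matrix proteoglycan perlecan, Hspb11 a component of cilia, and Hspbp1 and Hspbap1 partners of heat shock proteins. The data come from C57BL/6 progenitor B cells of embryonic fetal liver that carried, from successive retroviral transductions, BirA, a biotin ligase, then p190 Bcr-Abl, then the construct SE-Cre and finally BAP-Sox4, which is Sox4 joined to a BAP tag. There was 1 bioChIP library, in which chromatin was captured on streptavidin beads, and 1 input chromatin library of the same cells, so no value has a replicate and no test between conditions was possible. Cells were sorted after every transduction, and both libraries came from cells with all 4 constructs. In these cells Sox4 came from a retrovirus, and a capture from cells without tagged Sox4 was not analysed here.

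Each peak has a number of tags (reads, not scaled to depth), a fold over the background the peak caller expected, and a score, read as minus 10 log10 of its p-value. All 3 are the authors' values and rank peaks within this list of 8730 peaks only. The lowest score in the list was 50.03, and peaks held 25 to 5070 tags, with a median of 71. Library depth was not given in the sources used here. Promoter peaks of a gene are those whose interval came within 5 kb of any of its start sites (TSS). Of markers of the cell type, 4 of 6 progenitor B-cell genes had a promoter peak (Cd79a, Vpreb1, Igll1 and Ebf1, but not Cd79b or Pax5), as did 0 of 4 hepatocyte genes and 1 of 4 erythroid genes (Klf1). Among all protein-coding genes 32.8% had one, and counts this small do not name a cell type. RNA was not measured.

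Promoter sequences of 6 members are shown because the peaks at these genes, or the lack of a peak at Hspa1b, carry the comparisons below. They are RefSeq sequences of the GRCm38.p6 build, 250 bases before to 50 bases after the first start listed for the gene, 5′ to 3′ on the strand of the gene. Capitals mark matches on either strand to the heat shock element in its inverted-pair forms (GAANNTTC or TTCNNGAA), SOX-type letters (AACAAT or AACAAAG), the CCAAT box (CCAAT), the GC box (GGGCGG) and the endoplasmic reticulum (ER) stress element (CCAAT, any 9 bases, then CCACG, so that it contains a CCAAT box).
Hspe1 (chr1:55087898-55088197, + strand): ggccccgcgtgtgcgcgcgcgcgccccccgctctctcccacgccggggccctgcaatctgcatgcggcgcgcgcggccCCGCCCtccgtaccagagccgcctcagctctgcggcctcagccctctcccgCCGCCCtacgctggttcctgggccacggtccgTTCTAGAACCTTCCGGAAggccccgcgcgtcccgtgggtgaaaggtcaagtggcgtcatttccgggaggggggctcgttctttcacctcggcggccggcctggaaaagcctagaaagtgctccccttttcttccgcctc
Hsph1 (chr5:149636287-149636586, - strand): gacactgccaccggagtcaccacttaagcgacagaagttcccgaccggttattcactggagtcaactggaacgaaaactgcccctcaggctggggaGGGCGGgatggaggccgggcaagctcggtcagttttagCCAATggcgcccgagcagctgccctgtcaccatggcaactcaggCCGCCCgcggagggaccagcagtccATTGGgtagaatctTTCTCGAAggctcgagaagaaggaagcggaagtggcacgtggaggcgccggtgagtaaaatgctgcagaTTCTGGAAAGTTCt
Cct2 (chr10:117063803-117064102, - strand): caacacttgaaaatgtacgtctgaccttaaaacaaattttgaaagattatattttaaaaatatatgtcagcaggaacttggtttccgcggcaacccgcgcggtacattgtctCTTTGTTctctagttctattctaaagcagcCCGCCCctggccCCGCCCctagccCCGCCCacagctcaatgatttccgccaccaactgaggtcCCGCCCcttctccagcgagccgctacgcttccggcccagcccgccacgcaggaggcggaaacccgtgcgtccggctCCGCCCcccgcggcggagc
Dnajb1 (chr8:83607925-83608224, + strand): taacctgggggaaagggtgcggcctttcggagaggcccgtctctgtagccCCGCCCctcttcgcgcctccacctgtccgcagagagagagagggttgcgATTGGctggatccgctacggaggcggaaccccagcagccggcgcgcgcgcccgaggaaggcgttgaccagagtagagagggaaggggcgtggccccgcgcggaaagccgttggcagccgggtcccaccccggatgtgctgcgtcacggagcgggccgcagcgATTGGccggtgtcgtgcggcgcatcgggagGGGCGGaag
Hspa5 (chr2:34771840-34772139, + strand): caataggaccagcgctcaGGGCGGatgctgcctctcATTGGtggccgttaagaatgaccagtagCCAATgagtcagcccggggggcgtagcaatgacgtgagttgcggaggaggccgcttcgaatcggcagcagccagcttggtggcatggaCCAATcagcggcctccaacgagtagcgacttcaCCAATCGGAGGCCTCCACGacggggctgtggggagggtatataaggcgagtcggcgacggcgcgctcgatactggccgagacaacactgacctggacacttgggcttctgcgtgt
Hspa1b (chr17:34959189-34959488, - strand): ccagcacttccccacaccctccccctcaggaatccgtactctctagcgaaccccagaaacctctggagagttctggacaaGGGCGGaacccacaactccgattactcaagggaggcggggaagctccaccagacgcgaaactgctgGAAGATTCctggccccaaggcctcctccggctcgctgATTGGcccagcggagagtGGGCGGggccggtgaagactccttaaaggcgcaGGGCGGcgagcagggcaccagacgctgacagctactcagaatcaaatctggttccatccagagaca

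Promoter peaks were found at 53 of the 85 genes (62.4%, exact Clopper-Pearson 95% interval 51.2 to 72.6%), while 32.8% of all protein-coding genes had one. Such intervals cover counting error only. The 53 genes shared 58 promoter peaks, and for 47 of the 53 a peak interval overlapped a TSS of the gene (88.7%, against 86.6% of all genes with a promoter peak). Of the 32 genes without one, 6 had one inside the gene or at most 10 kb from it (Hspa1a, Hspa1b, Hspa1l, Hspa4l, Dnajb7 and Dnajb13), 9 were listed only for a peak farther away, and 17 were not listed for any peak. Close to the 5 kb limit, the highest-scoring promoter peaks of Dnaja3, Dnajc9 and Dnajc4 lay 3877, 4288 and 4346 bp from the TSS. Dnaja3 and Dnajc9 each had a second promoter peak over the TSS, and Dnajc4 had no other promoter peak. Just beyond the limit, the nearest peaks of Hspa1b, Dnajb7, Hspa1l and Hspa1a lay 6223, 7844, 8833 and 9380 bp from the TSS. With only peaks of fold 10 or more, 4 members had a promoter peak, Hspa9, Dnajb4, Cct2 and Hsph1 (4.71%, against 1.48% of all genes). At a window of 1 kb around the TSS it was 49 members (57.6%, against 30.2%), and at 20 kb 60 members (70.6%, against 41.9%). A peak overlapped the TSS itself at 47 members (55.3%, against 28.4%). Peaks in the gene or up to 10 kb away reached 59 members (69.4%, against 40.8%), and the 4365 peaks with the higher scores 36 promoters (42.4%, against 18.9%).

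**Figure D1:**
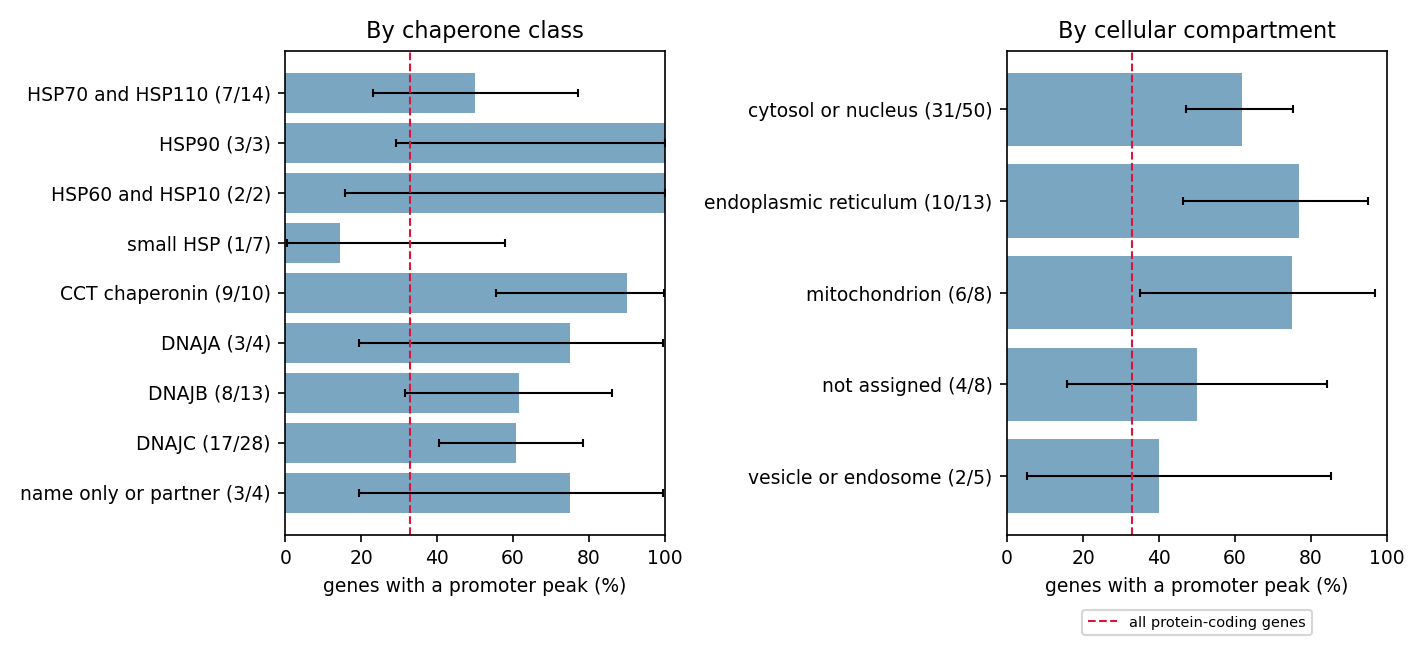
Percentage of genes with a promoter peak in each chaperone class (left) and cellular compartment (right), with the numbers of genes in parentheses; bars show the percentage, lines the exact 95% interval, and the dashed line the 32.8% of all protein-coding genes. CCT genes stand at 90.0% and small heat shock protein genes at 14.3%, and most intervals are wide because the classes are small. Of the class intervals, only those of CCT (55.5 to 99.7%) and DNAJC (40.6 to 78.5%) lie wholly above the dashed line. The others hold it, that of the small heat shock proteins included.

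In the HSP70 and HSP110 class, 7 of 14 genes had a promoter peak (50%, 23.0 to 77.0%). That interval holds the 32.8% of all protein-coding genes. Among the 7 were the housekeeping genes of the cytosol (Hspa8), the ER (Hspa5) and the mitochondrion (Hspa9). The peak of Hspa9, which encodes mortalin, the HSP70 of the mitochondrial matrix, was among the strongest of the whole list. It covered the TSS (mm9 chromosome 18, 35113565 to 35115250) with 549 tags (exact Poisson 95% interval 504 to 597, for counting error only, since reads copied by PCR are not independent molecules) at a fold of 42.5, the third highest of the list. Its score of 3100 was reached or exceeded by 7 peaks. Hsph1 encodes an HSP110 protein, a nucleotide exchange factor of HSP70, and its TSS lay in a peak of 177 tags (152 to 205), fold 15.5 and score 568.3 (chromosome 5, 150438454 to 150439814). Hspa8, encoding the constitutive HSP70 of the cytosol, had 2 promoter peaks. The peak over the TSS held 96 tags at a fold of 5.32 and the other, 856 bp upstream, 79 tags at a fold of 6.21.

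The ER members of the class were also marked. Hspa13, which encodes a microsomal HSP70-like protein, had a peak of fold 7.86 and score 213.2. Hspa5 encodes BiP, the main HSP70 of the ER, and its peak was moderate, with 88 tags (70.6 to 108), fold 4.01 and score 139.7. Hspa4, another HSP110 gene, and Hspa14, whose product works at the ribosome, had folds of 3.41 and 3.49. The Hspa14 peak also covered the TSS of Cdnf.

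The stress-inducible genes Hspa1a and Hspa1b had no promoter peak, nor had their neighbour Hspa1l, which is mainly expressed in testis. A strong peak at this locus lay 3414 bp past the end of Hspa1b and was closest to 1110038B12Rik (chromosome 17, 35088832 to 35089960; 227 tags, fold 15.2, score 984.3). The peak nearest to Hspa1a and Hspa1l, at the Lsm2 promoter, held 73 tags at a fold of 3.33. Hspa1a and Hspa1b are near-identical copies, and whether reads could be placed on them was not tested. Hspa2, Hspa4l, Hspa12a and Hspa12b completed the genes without a promoter peak. The Hspa12b gene was listed for a peak of fold 17.5, but that peak lay 13775 bp past its end, at the promoter of 1700037H04Rik.

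All 3 HSP90 genes had a peak over the TSS. Hsp90ab1, the constitutive cytosolic form, had the highest score of them, 361.7, from 204 tags (177 to 234) over 2173 bp and a fold of 6.32. Hsp90aa1, the inducible cytosolic form, had 134 tags (112 to 159), fold 5.98 and score 332.1. Hsp90b1, which encodes GRP94 of the ER, had 104 tags (85.0 to 126), fold 3.25 and score 128.7. The Hsp90b1 peak also covered the TSS of Ttc41. Tags were counted over whole peaks, and the Hsp90ab1 peak was the widest of the 3. Per kb of peak, Hsp90ab1 and Hsp90aa1 were close, at 93.9 and 88.6 tags, and Hsp90b1 had 78.3.

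Hspd1 and Hspe1, encoding HSP60 and HSP10 of the mitochondrial chaperonin, are transcribed away from each other and were covered by a single peak. It ran over 1697 bp (chromosome 1, 55144056 to 55145753) with 198 tags (171 to 228), fold 5.06 and score 273.8. The peak therefore cannot be assigned to either gene. The Hspe1 window printed above holds 3 overlapping matches to the inverted-pair heat shock element in an unbroken run, the first starting 89 bases before the start.

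The CCT chaperonin folds actin and tubulin, and each of its subunits is encoded by a gene of its own, with Cct6b as the testis form of Cct6a. Promoter peaks were found at 9 of the 10 CCT genes (90.0%, 55.5 to 99.7%), that is at every gene except Cct8l1, a CCT8-like gene. Cct2 had the highest fold of them, 21.7, with 199 tags (172 to 229) and score 998.1 (chromosome 10, 116500466 to 116501510). Cct6a followed with 138 tags (116 to 163), fold 9.25 and score 465.9. The peaks of Cct4, Cct7 and Tcp1 had folds of 6.54, 5.69 and 5.27. Those of Cct5, Cct8, Cct3 and Cct6b had folds of 3.70, 3.67, 3.33 and 3.25. The Cct5 peak held 52 tags (38.8 to 68.2) over 789 bp, or 65.9 tags per kb, and the Cct2 peak 191 tags per kb over 1044 bp. With 1 library, whether these peaks differ between samples of such cells was not tested.

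Most CCT peaks lay at starts shared with a neighbour. Of the 9 peaks, 6 covered the TSS of another protein-coding gene: Mrpl18 at Tcp1, Tsacc at Cct3, Atpsckmt at Cct5, Psph at Cct6a, Zfp830 at Cct6b and Pradc1 at Cct7. The Cct3 peak ended 47 bp short of the Cct3 TSS. With each peak given to the closest gene only, 3 of the 10 CCT genes had a promoter peak, Cct2, Cct4 and Cct5. Over all members with a promoter peak, the peak of 20 of the 53 covered another protein-coding TSS (37.7%, 24.8 to 52.1%), against 21.2% of all genes with a promoter peak. With the closest gene only, 35 of the 85 members had a promoter peak (41.2%, 30.6 to 52.4%), against 27.7% of all genes.

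**Figure D2:**
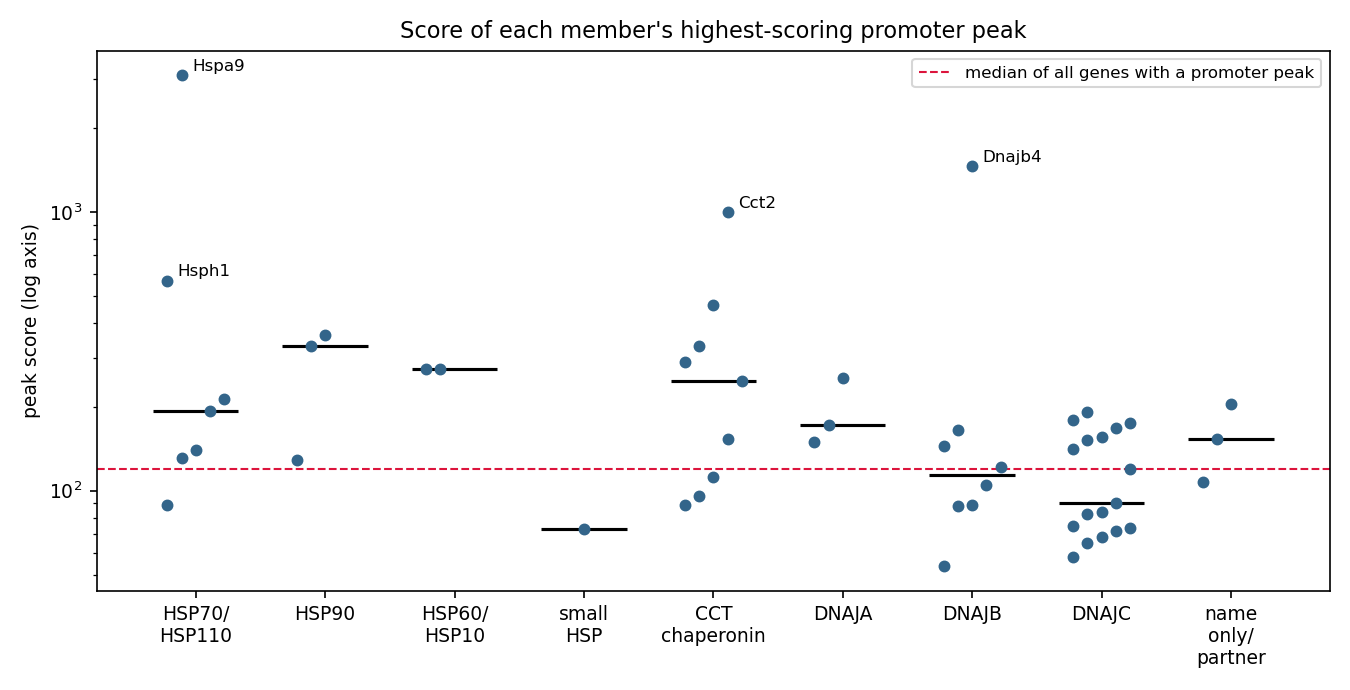
Score (log axis) of the highest-scoring promoter peak of each of the 53 members by class; points are genes, black lines class medians, and the dashed line the median of 119.2 over all 6875 genes with a promoter peak. Hspa9, Dnajb4, Cct2 and Hsph1 have scores from 568.3 to 3100, and all other members lie lower.

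Of the J-domain genes, 28 of 45 had a promoter peak (62.2%, 46.5 to 76.2%), with 3 of 4 in DNAJA, 8 of 13 in DNAJB and 17 of 28 in DNAJC. The median score of their peaks was 121.1 and the median fold 4.75, near the medians of all genes with a promoter peak (119.2 and 4.51). In DNAJA, the partners of cytosolic HSP70, Dnaja1 and Dnaja2, had folds of 5.28 and 4.71 at the TSS. Dnaja3, which encodes the mitochondrial Tid1, had a peak of fold 4.44 over its TSS and a higher-scoring one of fold 3.87 over the TSS of Coro7. Dnaja4 had none.

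Among DNAJB genes, Dnajb4 had the highest score, 1461.5, from 350 tags (314 to 389) and a fold of 19.2 (chromosome 3, 151872419 to 151874395). This peak covered the TSS of 1 of the 2 Dnajb4 transcripts listed (NM_027287) and also that of Fubp1, its closest gene. The start of the other transcript, NM_025926, lay 15613 bp away. Dnajb1, the classical HSP40, had a peak of 84 tags (67.0 to 104) over its TSS at a fold of 4.38. A peak of 340 tags, fold 34.1 and score 1972.5 lay 12888 bp upstream of Dnajb1 and was closest to Tecr. It was not counted for Dnajb1.

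Dnajb5 and Dnajb14 had peaks only upstream of the TSS, at 2490 bp and at 1734 and 2856 bp. Both Dnajb14 peaks were closest to H2afz, and the one at 2856 bp covered the start of that gene. Dnajb6, whose product suppresses aggregation, had the lowest score of all members, 53.6. Dnajb2 and the ER genes Dnajb9 and Dnajb12 had folds of 4.05, 3.51 and 3.72. Dnajb12 also had 4 listed peaks within and past the gene. Those without a promoter peak were Dnajb3, Dnajb7, Dnajb8 and Dnajb13, which are known mainly from testis, and Dnajb11, which encodes the ER co-chaperone ERdj3.

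DNAJC peaks had folds from 3.15 to 7.71 and a median score of 90.2. None of the 17 reached a fold of 10, against 4.51% of all genes with a promoter peak. With 17 genes this does not set the class apart. The highest fold was that of Dnajc11, a protein of the mitochondrial membranes (80 tags, 63.4 to 99.6, score 192.0). Dnajc19, the J-protein of the mitochondrial import motor, had a fold of 6.22 in a narrow peak of 46 tags. In the nucleus and at the ribosome, Dnajc2, Dnajc8, Dnajc9, Dnajc17 and Dnajc21 had folds of 5.41, 5.49, 5.91, 5.25 and 5.21. These include a ribosome-associated partner of Hspa14 (Dnajc2), a histone chaperone (Dnajc9) and spliceosome components (Dnajc8 and Dnajc17). Dnajc12 and Dnajc25 had weaker peaks over the TSS, at scores of 58.0 and 65.0.

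Several of these peaks belonged as much to a neighbour. The higher-scoring Dnajc2 peak covered the start of Psmc2 as well as its own, and Psmc2 was its closest gene. Likewise, the Dnajc17 peak also covered the start of Zfyve19, its closest gene. The Dnajc9 peak with the higher score covered the TSS of Mrps16, and the gene's own start had a peak of fold 4.81. The same held for Dnajc7, with a fold of 6.75 at Nkiras2 and 4.56 at its own start. The Dnajc8 peak lay 1589 bp upstream of the TSS and covered the start of Atpif1, and the Dnajc4 peak covered that of Vegfb. Of the ER genes, Dnajc14, Dnajc3, Dnajc1 and Dnajc10 had folds of 5.59, 4.98, 3.86 and 3.78 at the TSS. Of the vesicle genes, Dnajc5, encoding cysteine string protein, and Dnajc13, an endosomal protein, had folds of 4.67 and 3.33. Their relatives Dnajc5b and Dnajc5g and the auxilin gene Dnajc6 were not listed for a peak. Nor were Dnajc24, needed to make diphthamide, and Dnajc27.

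Small heat shock proteins hold unfolded proteins without ATP and are abundant in muscle and lens. Of their 7 genes, 1 had a promoter peak (14.3%, 0.361 to 57.9%), an interval that holds the 32.8% of all genes. It was Hspb6, with a peak of 54 tags (40.6 to 70.5) at a fold of 3.16, 827 bp upstream of the TSS. This peak covered the start of Proser3 (BC053749 in the list) and not that of Hspb6. Hspb1, Hspb3 and Hspb8 were not listed for a peak, and Hspb2, Hspb7 and Hspb9 only for peaks more than 10 kb away. Of the genes that share the name alone or are partners, Hspbp1, Hspb11 and Hspbap1 had folds of 5.09, 5.0 and 5.05, and Hspg2 had no promoter peak. The Hspb11 peak also covered the start of Lrrc42, its closest gene.

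By compartment, promoter peaks were found at 31 of 50 cytosolic or nuclear genes (62.0%, 47.2 to 75.3%), 10 of 13 ER genes (76.9%, 46.2 to 95%), 6 of 8 mitochondrial genes (75%, 34.9 to 96.8%) and 2 of 5 vesicle or endosome genes (40.0%, 5.27 to 85.3%). The intervals of all 4 overlap, so these data do not separate the compartments. The median fold was 5.25 for cytosolic or nuclear, 3.93 for ER and 5.64 for mitochondrial genes with a peak, and ER folds ran from 3.25 to 7.86. The 3 ER genes without a promoter peak were Dnajb11, Dnajc16 and Dnajc18, and the mitochondrial ones Dnajc15 and Dnajc30. A further 8 genes were not assigned to a compartment, and 4 of them had a promoter peak.

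**Figure D3:**
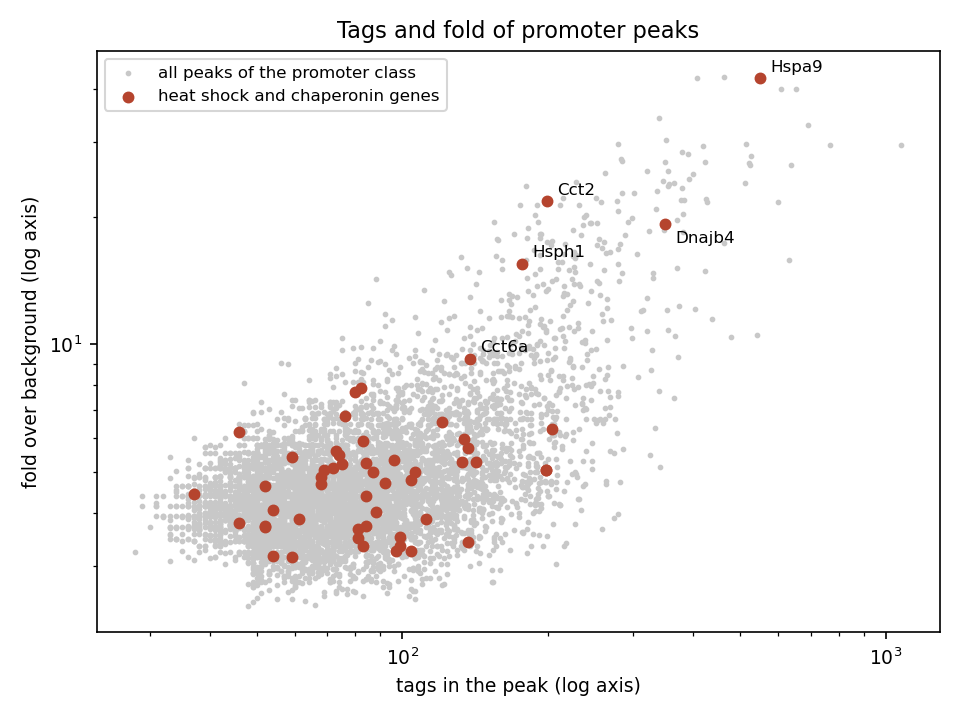
Tags against fold over background, both on log axes, for all peaks of the promoter class (grey) and the highest-scoring promoter peak of each of the 53 members (red). Most members lie within the bulk of promoter peaks, while Hspa9, Cct2, Dnajb4 and Hsph1 lie at folds from 15.5 to 42.5.

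The 53 members' peaks were slightly higher in the middle of their range than those of all genes, with quartiles that overlap widely. Their median score was 150.1 (quartiles 89.2 and 213.2), against 119.2 (79.7 and 197.6) over all 6875 genes with a promoter peak. Their median fold was 5.0 against 4.51, their median number of tags 84 against 78 and their median width 1079 against 982 bp. A second promoter peak was found at 6 of the 53 members (11.3%, against 9.61%): Hspa8, Dnaja3, Dnajb14, Dnajc2, Dnajc7 and Dnajc9.

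Promoter windows of RefSeq were found for 70 of the 85 members, 43 with and 27 without a promoter peak. The other 15 were not searched, so the shares below say nothing about them. Those with a promoter peak were Hspa8, Hspa9, Hspa13, Hsp90aa1, Hsp90ab1, Cct4, Dnajc2, Dnajc5, Dnajc11 and Dnajc12. Those without one were Hspb2, Dnajc5b, Dnajc18, Dnajc22 and Dnajc30. A window was called CpG-rich at a GC content of 50% or more and a ratio of observed to expected CpG of 0.6 or more. Of the members with a promoter peak, 39 of 43 windows were CpG-rich (90.7%, 77.9 to 97.4%), against 12 of 27 without a peak (44.4%, 25.5 to 64.7%) and 79.5% of all genes with a promoter peak. Within CpG-rich windows, 39 of 51 members had a promoter peak (76.5%, 62.5 to 87.2%), against 56.0% of all such genes. In the other windows it was 4 of 19 members (21.1%, 6.05 to 45.6%), against 13.0% of all such genes. Hspa1a, Hspa1b, Hspb1, Hspb3, Hspb7, Hspb8 and Hspb9 were among the 15 members whose window was not CpG-rich and that had no promoter peak. Hspa1b, Hspb1 and Hspa1a came near the limit of 0.6, with ratios of 0.58, 0.55 and 0.54. Of the 4 with a peak, Dnajc4 had a ratio of 0.57. Cct5, Dnajc8 and Dnajc10 missed only the GC limit, at 47.3, 48.0 and 48.7%. Other limits were not tried.

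The GC box, whose letters hold a CpG and so are not independent of the CpG call, showed the same division. It lay in 37 of 43 windows of members with a peak (86.0%, 72.1 to 94.7%) and 13 of 27 without (48.1%, 28.7 to 68.1%). This was not particular to members, since the share was 47.9% over all protein-coding windows and 71.2% over those with a promoter peak. In the Cct2 window printed above the GC box occurs 5 times. The CCAAT box was found in 18 of 43 and 10 of 27 windows (41.9 and 37.0%, against 39.4% of all). Inverted-pair heat shock elements lay in 15 of the 70 member windows (21.4%, 12.5 to 32.9%), against 13.7% of all windows and 10.4% of those with a promoter peak. They were found at 7 of 43 members with a peak (Hsph1, Hspe1, Dnaja1, Cct5, Cct6a, Dnajb6 and Dnajc10) and at 8 of 27 without, among them Hspa1a, Hspa1b, Hspb1 and Hspb8.

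SOX-type letters were uncommon in these windows. AACAAT was found in 3 of the 43 windows of members with a promoter peak (6.98%, 1.46 to 19.1%), at Dnajb4, Dnajc1 and Dnajc10, against 4.97% of all genes with a promoter peak and 9.24% of all windows. AACAAAG was found in 1 of 43 (2.33%, 0.0589 to 12.3%), against 3.82% of all genes with a promoter peak and 4.90% of all windows, and in 2 of the 27 windows of members without a promoter peak. The 1 match, at Cct2, lies on the opposite strand and starts 138 bases before the start. The windows span at most part of a peak. Where no peak overlaps the TSS, as at Dnajb14 and Dnajc8 (nearest promoter peaks at 1734 and 1589 bp), the window can lie outside the peak. No match says only that these letters are not in this window.

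The ER stress element was found in 28 of all 16783 windows (0.167%), and 3 of these were members: Hspa5, Hsp90b1 and Dnajc3. All 3 encode ER proteins and had a peak over the TSS, at folds of 4.01, 3.25 and 4.98. Among the other 25 genes, 4 belonged to the list of ER folding genes described next (Calr, Canx, Pdia6 and Ero1b, named for this match after their values were seen), and those 4 had promoter peaks too. Of all 28 genes, 14 had a promoter peak, and of all 16783 genes with a window 5599 had one. All of the 28 without a promoter peak were among the 21 genes that were neither members nor in that list. Since 11 of the 12 genes of that list had a promoter peak, this split cannot tell the element from the list.

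**Figure D4:**
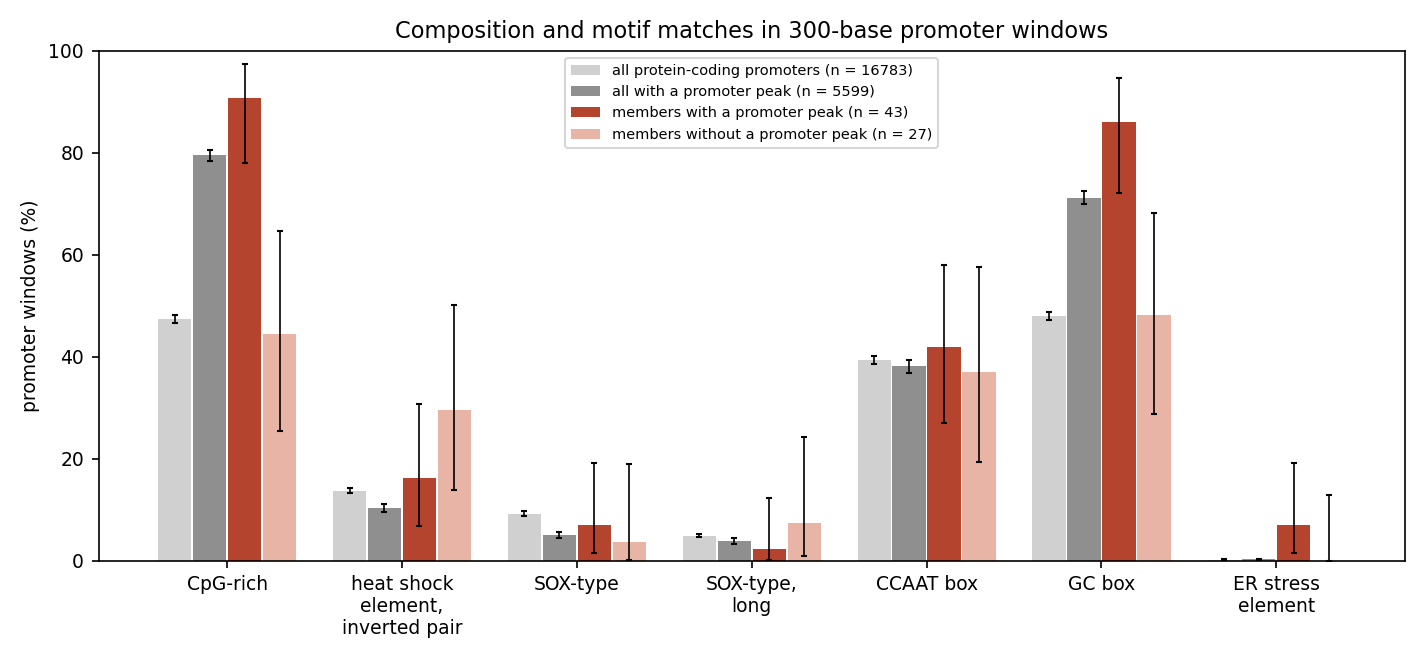
Percentage of promoter windows of 300 bases that were CpG-rich or held a match to each motif, for all protein-coding genes, all genes with a promoter peak, and members with and without a promoter peak; lines are exact 95% intervals. CpG-rich windows and GC boxes are more frequent at members with a promoter peak (90.7 and 86.0%) than at those without (44.4 and 48.1%).

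Other genes of protein folding were examined in 5 lists of 60 genes. A promoter peak was found at 40 of them (66.7%, 53.3 to 78.3%), against 32.8% of all protein-coding genes. Of the ER folding genes, 11 of 12 had one (91.7%, 61.5 to 99.8%), all but Sdf2l1. The protein disulfide isomerase genes Pdia4 and Pdia3 were the strongest, at folds of 27.3 and 10.8 and scores of 1653.2 and 687.0. Of the co-chaperones of HSP70 and HSP90, 15 of 19 had a promoter peak (78.9%, 54.4 to 93.9%). Chordc1, whose product binds HSP90, stood first with a fold of 14.8 (score 503.0), followed in score by the nucleotide exchange factor gene Bag5 (272.2, fold 6.67) and the HSP90 activator gene Ahsa2 (213.5, fold 6.88). Bag2, Bag3, Cdc37l1 and Unc45a had none.

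Of the mitochondrial folding and import genes, 7 of 11 had a promoter peak (63.6%, 30.8 to 89.1%). That interval holds the 32.8% of all genes. The highest scores were those of the protease gene Lonp1 (235.5, fold 6.12) and the iron-sulphur co-chaperone gene Hscb (234.4, fold 6.47). Trap1, Grpel1, Grpel2 and Timm44 had none, although the products of the last 3 work with that of Hspa9. Prefoldin and tubulin-folding genes had 5 of 12 (41.7%, 15.2 to 72.3%), an interval that holds the 32.8% of all genes, with Tbcc the highest by score (229.5, fold 4.73). Of 6 heat shock factor genes and relatives, 2 had a promoter peak (33.3%, 4.33 to 77.7%), close to the share of all genes. Hsf2 had a peak over its TSS (fold 4.22, closest gene 4930467K11Rik) and Hsf2bp one at 1379 bp (fold 3.51). Hsf1, the main regulator of the heat shock response, had no promoter peak, nor had Hsf4, Hsf5 and Hsbp1.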

How the data were processed

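The deposited list of peaks of the Sox4 bioChIP library was used. The submitters' processing notes name MACS 1.4.2, Bowtie 0.12.8 and the build mm9. Parameters and the control of the peak calls are not given in the sources used here. The deposited tag numbers are whole-number counts per peak with no normalization. The deposited fold is the ratio of tags in a peak to the background expected by the caller. The score column deposited by the authors was taken as minus 10 log10 of a p-value, because its lowest value is 50.03. The input library was not analysed here.

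With Python 3.11.15, pandas 2.3.3 and SciPy 1.17.1, each listed transcript was matched to the RefSeq gene table (GRCm38.p6, names and lengths only): 14992 of 15228 by accession, 192 by symbol, 32 by an older symbol, and 12 not at all. Genes were listed up to 25 kb from a peak. Distances run from the peak interval and are 0 where it overlaps the site. A gene was represented by its highest-scoring promoter peak. The 18 pseudogenes with matching names were left out, and so was Hspb10, a name not found in the table. Classes and compartments came from general knowledge of the proteins. Every member could be named, and of the other folding genes up to the 3 highest-scoring per list and those without a peak, besides 4 ER folding genes named for a sequence match after their values were seen. Members, lists and alternatives were chosen with earlier results of these data known, and the CpG limits were set after the files had been read. Counting and motif search were tested on simulated data. Motifs were searched in the first window listed for a gene, of 16783 genes with a window. One of the cell type markers fixed for the check of the label is not reported here.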

Additional observations from a re-analysis of the deposited data

How the results depend on the processing

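With 1 library nothing here has a replicate, depth is unknown, and a gene without a listed peak may have one below the threshold. No paired analysis was possible because each group has a single library. Of the counts above, 20 of 21 moved by over 1.5 times with peaks of fold 10 or more: 4 members in all, 2 of HSP70 and HSP110, 1 of CCT, 1 of DNAJB and 0 of HSP90, HSP60 and HSP10, small HSP, DNAJA, DNAJC and the partners. By compartment this left 3 cytosolic or nuclear, 1 mitochondrial, and 0 ER, vesicle and unassigned genes. In the other lists it left 2 ER folding genes, 1 co-chaperone and 0 of the rest. Over all protein-coding genes, the share with a promoter peak at this limit was 1.48% in place of 32.8%. Counts of 0 in groups this small therefore do not set a group apart.

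With the 4365 higher-scoring peaks, 36 members had a promoter peak (42.4%, against 18.9% of all genes). DNAJB fell to 4, DNAJC to 8, small HSP to 0, ER to 6, vesicle to 0, unassigned to 2, ER folding genes to 6, mitochondrial folding genes to 4, prefoldin and tubulin folding to 3 and heat shock factors to 1. With the closest gene only, the counts were 35 for all members, 3 for CCT, 5 for DNAJB, 1 for HSP60 and HSP10, 0 for small HSP, 17 for cytosolic or nuclear and 2 for unassigned genes, and 0 for heat shock factors.

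A TSS window of 1 kb (49 members) moved only heat shock factors, to 1. The same list moved to 1 with peaks that overlap the TSS (47 members), where small HSP fell to 0. A window of 20 kb (60 members, against 41.9% of all genes) moved small HSP to 2. Counting peaks in the gene or within 10 kb (59 members) moved HSP70 and HSP110 to 11, by Hspa1a, Hspa1b, Hspa1l and Hspa4l. Without the 4 partners or name-only members, 50 genes had a promoter peak. The median score was 130.6 to 147.5 in place of 150.1 and the median fold was at least 4.79 in the settings tried for them, including each peak counted once, which was added after seeing the data. Heat shock elements were found in 20 in place of 15 members when all listed starts were searched (28.6%, against 15.7% of all genes with a window). The share of all genes rose too, from 13.7%. Of the 20 members, 11 had a promoter peak and 9 did not.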
